A study of Homo sapiens with 10 samples.

Results

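The genes of G1 progression described here were 3 groups of cell cycle regulators, namely the D-type cyclins CCND1 and CCND3 with their kinases CDK4 and CDK6, the cyclin-dependent kinase inhibitors CDKN1A, CDKN1B and CDKN2D with the ubiquitin ligase subunit SKP2, and the G-type cyclins CCNG1 and CCNG2. They were chosen by gene symbol as a functional family, with earlier results of these data known. Other G1 cyclins and CDK inhibitors, among them CCNE1, CCNE2 and CDKN2A, were placed in a list described below. Every probe set that the array annotation assigned to 1 of the member symbols and to no other was taken. This gave 16 probe sets for 10 genes, out of 22215 probe sets other than controls and 11963 genes with such a probe set. All values are log2 RMA signals, a background-corrected and quantile-normalized summary of the probes of a probe set, so a difference of 1 is a 2-fold change. Signals of different probe sets are on different scales and were not set against each other.

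MDA-MB-435 is an established human melanoma cell line, and all samples came from this single line under standard growth conditions. RNA was hybridised to Affymetrix arrays in 5 groups of 2 arrays, described as biological duplicates. These were untreated wild-type cells, wild-type cells given hepatocyte growth factor (HGF) for 1, 6 or 24 h, and cells transduced with the integrin beta 4 subunit (ITGB4). The dose of HGF, the vector and whether the transduced cells were a clone are not given in the sources used here. No group of mock-transduced cells was used here, so that ITGB4 itself and the transduction procedure cannot be told apart. The HGF time points were each compared with the same 1 pair of untreated arrays. Since no time point had an untreated pair of its own, HGF and time in culture or handling cannot be told apart. Of the melanocyte markers 13 of 14 were above the filter described below, with a median level of 11.1, against 3 of 15 epithelial and 3 of 10 fibroblast markers with medians of 6.20 and 6.34. ITGB4 (probe set 204990_s_at) measured 13.10 ± 0.20 (SD, n = 2) in the transduced cells and 6.64 ± 0.08 (SD, n = 2) in untreated cells. Array medians ran from 6.81 to 6.88, and the difference between the 3′ and 5′ control probe sets of ACTB from -0.57 to -0.085.

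HGF is the ligand of the MET receptor tyrosine kinase, which drives the RAS-ERK and PI3K-AKT pathways, and integrin beta 4 can take part in MET signalling. In G1, D-type cyclins are made in response to such growth signals and activate CDK4 and CDK6, which begin the phosphorylation of the retinoblastoma protein and so release E2F factors for S phase entry. CDKN1A (p21) and CDKN1B (p27) bind cyclin-kinase complexes, CDKN2D (p19) belongs to the INK4 inhibitors specific for CDK4 and CDK6, and SKP2 is the F-box protein that directs p27 to degradation. The G-type cyclins are unconventional cyclins, of which CCNG1 is a p53 target that regulates the MDM2 feedback and CCNG2 is a target of FOXO factors that is high in cells leaving the cycle.

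The promoter windows of 9 of the 10 genes were matched in RefSeq (GRCh38.p14), as 13 windows that each run from 250 bases before to 50 bases after an annotated transcript start; CCND1 had no entry. The 250 upstream bases of the G-type cyclins are shown because both genes fell after HGF, and those of CDK4 because this window held more copies of a searched motif than that of any other member. Capitals mark CACGTG, the E-box bound by MYC and related factors.
CCNG2, chr4:77156957-77157206, plus strand: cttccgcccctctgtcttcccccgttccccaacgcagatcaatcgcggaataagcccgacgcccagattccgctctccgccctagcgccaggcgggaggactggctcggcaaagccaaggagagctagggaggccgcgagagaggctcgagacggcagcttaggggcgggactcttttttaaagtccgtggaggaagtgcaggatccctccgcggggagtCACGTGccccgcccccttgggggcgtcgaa
CCNG1, chr5:163437321-163437570, plus strand: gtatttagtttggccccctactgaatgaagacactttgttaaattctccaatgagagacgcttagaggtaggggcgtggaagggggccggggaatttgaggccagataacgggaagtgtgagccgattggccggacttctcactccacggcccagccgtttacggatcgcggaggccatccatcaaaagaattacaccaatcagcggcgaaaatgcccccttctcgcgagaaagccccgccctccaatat
CDK4, chr12:57752311-57752560, minus strand: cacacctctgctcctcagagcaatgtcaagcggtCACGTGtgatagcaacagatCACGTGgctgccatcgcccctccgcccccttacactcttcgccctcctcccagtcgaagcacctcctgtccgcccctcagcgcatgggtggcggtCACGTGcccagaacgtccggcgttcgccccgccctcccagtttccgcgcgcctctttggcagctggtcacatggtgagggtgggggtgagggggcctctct
The CCNG2 upstream window also lies within a long non-coding RNA gene of the same annotation. Counted from the transcript start, the E-box of CCNG2 began at base -30 and those of CDK4 at bases -216, -196 and -101. Another E-box began at base 31 of a CDK6 transcript. The E-box was thus present in 3 of the 13 windows, against 7.26% of 35116 RefSeq windows of the same length. The forkhead (FOXO) motif GTAAACA, searched on both strands, was in 1 window of CCND3 and in 3.42% of all windows. No member window held the AP-1 motif TGANTCA, the cyclic AMP response elements TGACGTCA and TAACGTCA, or the E2F motifs TTTGGCGC, TTTCGCGC and TTTCCCGC on either strand, and these letters were in 7.71%, 1.85%, 0.347%, 0.652%, 0.515% and 1.63% of all windows. These matches describe letters in the windows and do not show binding.

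A probe set entered the tests when at least 2 of the 10 arrays reached 7.3, which kept 10176 probe sets. Of the 16 member probe sets 14 were kept, covering 9 genes. Those left out were the single CDK6 probe set and 213586_at of CDKN2D. A probe set is called here when its adjusted p in limma was below 0.05, with the Benjamini-Hochberg adjustment made separately in each comparison over these 10176 probe sets. Both CCND1 probe sets and the SKP2 probe sets 203626_s_at and 210567_s_at were kept only through HGF 6 h or ITGB4 arrays, so that they had to be high in these groups. Their tests are therefore also given without any filter, over all 22215 probe sets, and counts over the kept probe sets are given as a description. Differences that involve a group mean below 7.3 are those of the RMA values and are given without a fold. Since RNA came from whole cultures, a changed share of cells in a cell cycle phase and a changed amount of RNA per cell cannot be told apart.

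**Figure D1:**
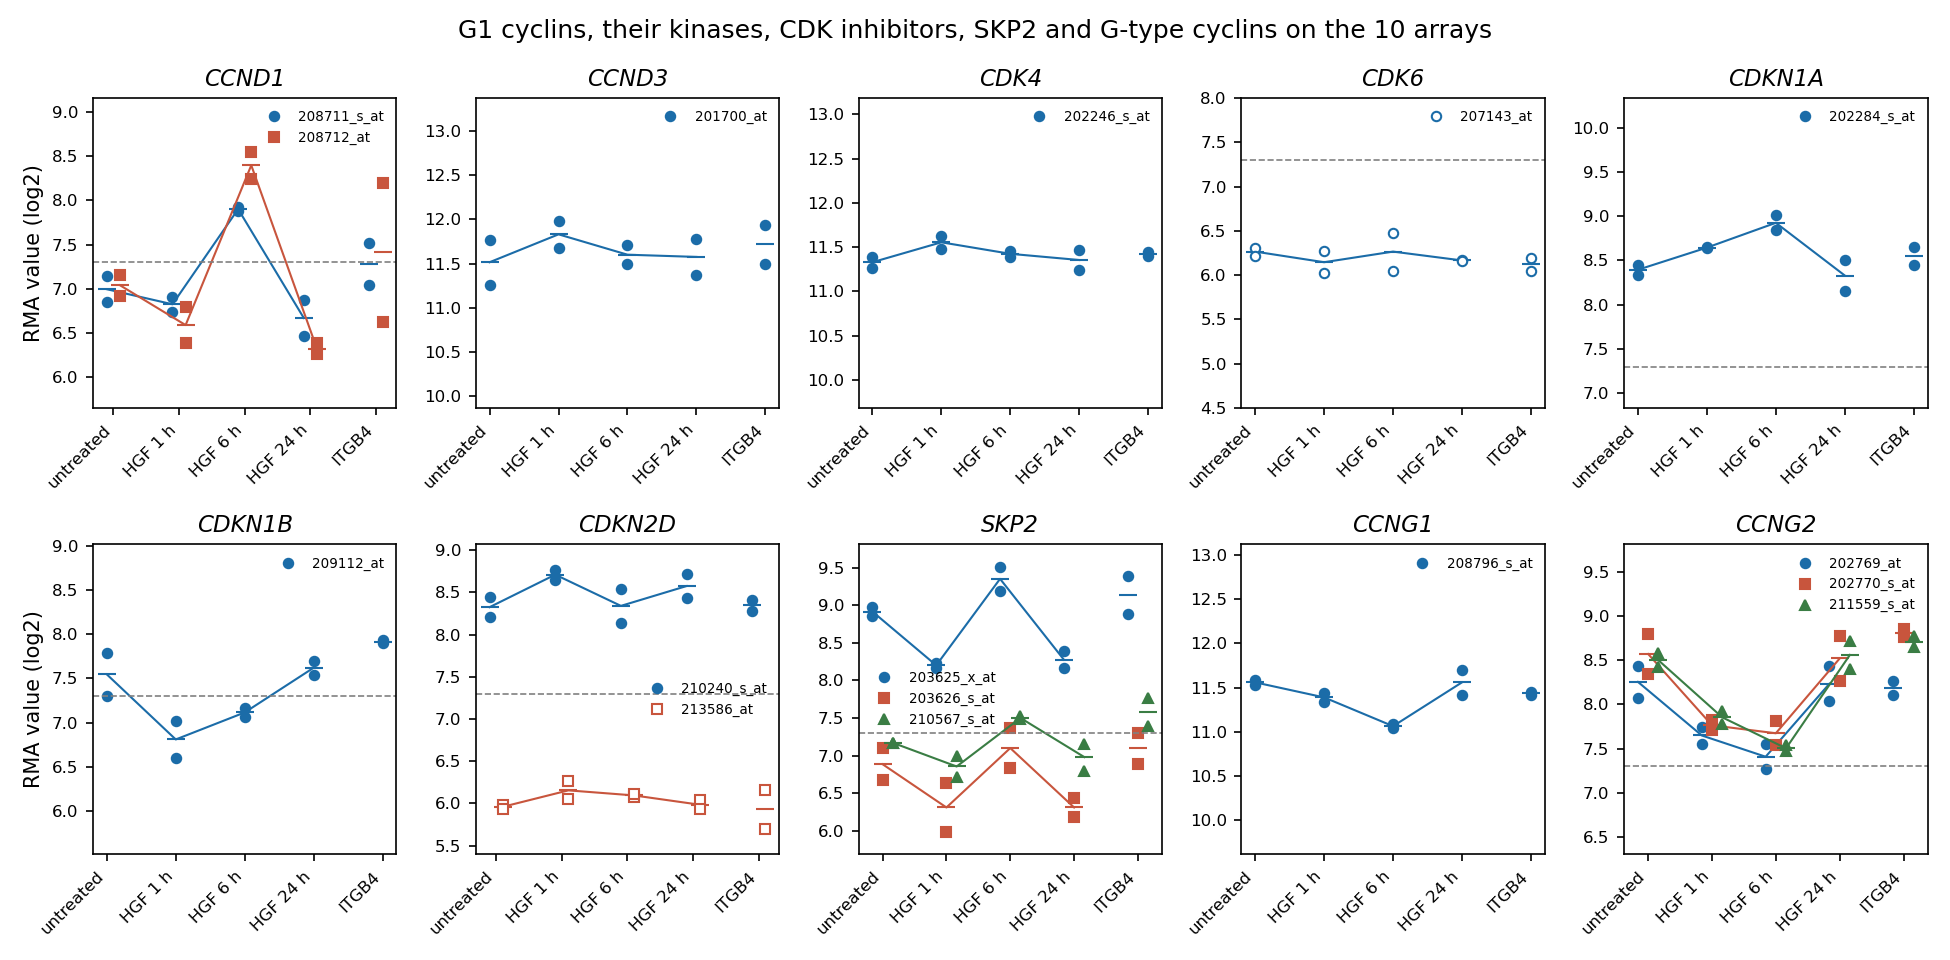
Log2 RMA signal (y axis) of the 16 member probe sets in each of the 10 arrays, by group (x axis: untreated, HGF 1, 6 and 24 h, ITGB4). Each point is 1 array and each bar the mean of 2, lines join the untreated and HGF means, open points are the 2 probe sets that were not kept, and the dashed line is the filter at 7.3. CCND1 stood highest at 6 h, SKP2 rose between 1 and 6 h and dropped again, and the CCNG2 probe sets were low at 1 and 6 h.

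CCND1, which encodes cyclin D1, rose at 6 h of HGF and was back at or below the untreated level at 24 h. On 208711_s_at the untreated arrays measured 7.14 and 6.85, those at 1 h 6.74 and 6.91, those at 6 h 7.92 and 7.88, those at 24 h 6.47 and 6.87, and the ITGB4 arrays 7.52 and 7.04. Both 6 h arrays lay above all 8 other arrays. On 208712_at the corresponding pairs were 7.16 and 6.92, 6.79 and 6.39, 8.55 and 8.24, 6.39 and 6.26, and 8.20 and 6.62. Again both 6 h arrays were the highest of all, but 1 of the ITGB4 arrays came close to them while the other lay below the untreated pair.

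The rise of CCND1 over untreated cells at 6 h was 0.90 (SE 0.18, adjusted p = 0.0207) on 208711_s_at, with group means of 7.90 at 6 h and 7.00 in untreated cells. On 208712_at it was 1.36 (SE 0.37) and missed the threshold at an adjusted p of 0.0558. Without the filter that let these probe sets through, the adjusted p values were 0.0160 and 0.0490. This second probe set had the largest spread within groups of all members, with a pooled SD of 0.53, against a median of 0.144 over all kept probe sets, and the gap between its ITGB4 arrays entered that spread. With the spread taken without the ITGB4 arrays, an alternative chosen after this gap was seen, 7 member probe sets and 8.52% of all were called at 6 h, 208712_at among them, against 5 member probe sets and 6.21% of all with every array. Between 1 h and 6 h CCND1 rose on both probe sets, by 1.08 (SE 0.18, adjusted p = 0.00633) and 1.80 (SE 0.37, adjusted p = 0.0113), and from 6 h to 24 h it fell by 1.23 (SE 0.18, adjusted p = 0.00231) and fell by 2.07 (SE 0.37, adjusted p = 0.00499). Without the filter these adjusted p values were 0.00333 and 0.00619 for the rise and 0.00106 and 0.00222 for the fall. At 1 h the differences from untreated cells were -0.17 and -0.44 (adjusted p = 0.565 and 0.465), and at 24 h -0.33 and -0.71 (adjusted p = 0.523 and 0.503). The ITGB4 cells differed from untreated cells by 0.28 (SE 0.18) and 0.37 (SE 0.37), with adjusted p values of 0.966 and 0.986. The call at 6 h on 208711_s_at was lost without either untreated array or either 6 h array (adjusted p between 0.00316 and 0.167 over 20 alternative settings), and the rise from 1 h was lost on 208711_s_at without HGF 1 h replicate 1 or HGF 6 h replicate 2, and on 208712_at also without HGF 6 h replicate 1. The fall from 6 h to 24 h remained called whichever single array was left out.

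CCND3, which encodes cyclin D3, did not follow CCND1. Its arrays measured 11.26 and 11.77 in untreated cells, 11.68 and 11.98 at 1 h, 11.49 and 11.71 at 6 h, 11.37 and 11.78 at 24 h, and 11.50 and 11.94 in ITGB4 cells. Every pair of groups that are neighbours in the order of their means overlapped. The differences from untreated cells were 0.32 (SE 0.21, adjusted p = 0.360) at 1 h, 0.09 (SE 0.21) at 6 h, 0.07 (SE 0.21) at 24 h and 0.20 (SE 0.21) in ITGB4 cells, and no comparison was called. Within each of the 5 groups replicate 2 exceeded replicate 1, by 0.38 on average, which was more than any of the differences from untreated cells. The same order held in all 5 groups for CDKN2D (210240_s_at), by 0.23, and for 6.87% of all kept probe sets. Whether the replicate numbers mark a shared day of work is not given in the labels.

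CDK4, the kinase partner of the D-type cyclins, varied least among groups of the tested members. It measured 11.27 and 11.39 in untreated cells, 11.63 and 11.48 at 1 h, 11.39 and 11.46 at 6 h, 11.24 and 11.47 at 24 h, and 11.45 and 11.40 in ITGB4 cells. The 1 h arrays were above the untreated pair without overlap, yet the difference of 0.23 (SE 0.13) had an adjusted p of 0.270, and none of the 6 comparisons was called. The probe set of CDK6, the other partner kinase, stayed between 6.02 and 6.48 on all 10 arrays. This is below the filter, so no test was made and nothing is said of the level of CDK6.

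CDKN1A, the p21 inhibitor and a p53 target, was highest at 6 h. Its arrays measured 8.34 and 8.45 in untreated cells, 8.65 and 8.64 at 1 h, 8.84 and 9.01 at 6 h, 8.16 and 8.50 at 24 h, and 8.65 and 8.45 in ITGB4 cells. Both 6 h arrays lay above all others. The difference from untreated cells at 6 h was 0.53 (SE 0.14, 1.45-fold) and missed the threshold, at an adjusted p of 0.0509. It was below 0.05 in 11 of 21 alternative settings, among them both other scalings of the arrays, within a range of 0.0134 to 0.332. CDKN1A then fell by 0.60 from 6 h to 24 h (SE 0.14, adjusted p = 0.0161), a call that was lost without either 6 h array or without HGF 24 h replicate 1. At 1 h the difference from untreated cells was 0.25 (SE 0.14, adjusted p = 0.275), at 24 h -0.06 (SE 0.14) and in ITGB4 cells 0.16 (SE 0.14).

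CDKN1B, the p27 inhibitor, fell at 1 h, and its 24 h arrays lay within the untreated pair. Untreated arrays measured 7.3 and 7.79, those at 1 h 6.60 and 7.02, those at 6 h 7.06 and 7.17, those at 24 h 7.54 and 7.70, and the ITGB4 arrays 7.93 and 7.90. Both 1 h arrays and both 6 h arrays lay below the untreated pair, and below the floor of 7.3. At 1 h CDKN1B dropped by 0.74 (SE 0.18, adjusted p = 0.0397), from a mean of 7.55 to 6.81, the latter below the floor. At 6 h the difference was -0.43 (SE 0.18, adjusted p = 0.172), and at 24 h 0.07 (SE 0.18). The difference between 24 h and 6 h was 0.50 (SE 0.18) with an adjusted p of 0.0701. ITGB4 cells held the highest CDKN1B values of all groups, 0.37 above untreated cells (SE 0.18), with an adjusted p of 0.854. The 1 h call was lost without either untreated array, HGF 1 h replicate 1 or either HGF 6 h array, and the adjusted p ran from 0.0189 to 0.254 over 20 alternatives.

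CDKN2D, an INK4 inhibitor, was not called in any comparison. On 210240_s_at it measured 8.21 and 8.44 in untreated cells, 8.65 and 8.77 at 1 h, 8.14 and 8.54 at 6 h, 8.43 and 8.72 at 24 h, and 8.28 and 8.41 in ITGB4 cells. The 1 h arrays were above the untreated arrays and above the 6 h arrays, by 0.39 (SE 0.16, adjusted p = 0.161) and 0.37 (SE 0.16, adjusted p = 0.127). Its other probe set, 213586_at, stayed between 5.70 and 6.26 and was not tested. Over the 10 arrays its values had a Pearson correlation of 0.28 with those of 210240_s_at, whereas the probe sets of CCND1, SKP2 and CCNG2 correlated with each other at 0.73 to 0.95.

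SKP2, the substrate receptor for p27 in the SCF ubiquitin ligase, was low at 1 h, high at 6 h and low again at 24 h. On 203625_x_at the untreated arrays measured 8.86 and 8.97, those at 1 h 8.23 and 8.17, those at 6 h 9.19 and 9.51, those at 24 h 8.16 and 8.39, and the ITGB4 arrays 9.39 and 8.88. The 1 h and 24 h arrays all lay below the untreated pair, and both 6 h arrays above it. On 210567_s_at the corresponding pairs were 7.17 and 7.17, 6.99 and 6.72, 7.52 and 7.48, 6.80 and 7.16, and 7.77 and 7.39. The third probe set, 203626_s_at, measured 7.10 and 6.67, 5.99 and 6.63, 6.83 and 7.37, 6.18 and 6.44, and 7.3 and 6.89, most of them under the floor. The highest group mean was that at 6 h on 203625_x_at and that of ITGB4 cells on 210567_s_at, and the 6 h and ITGB4 pairs overlapped on all 3 probe sets, as did the 1 h and 24 h pairs. The name of 203625_x_at marks probes that can bind transcripts of other genes, so its values may not be of SKP2 alone.

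At 1 h SKP2 dropped by 0.72 on 203625_x_at (SE 0.18, adjusted p = 0.0422), while the differences of -0.58 on 203626_s_at (SE 0.25, adjusted p = 0.173) and -0.31 on 210567_s_at (SE 0.17, adjusted p = 0.250) were not called. SKP2 then rose from 1 h to 6 h by 1.15 on 203625_x_at (SE 0.18, adjusted p = 0.00424) and by 0.65 on 210567_s_at (SE 0.17, adjusted p = 0.0236), and 203626_s_at showed 0.79 (SE 0.25, adjusted p = 0.0504). All 3 probe sets fell from 6 h to 24 h, by 1.08 (SE 0.18, adjusted p = 0.00326), by 0.79 (SE 0.25, adjusted p = 0.0485) and by 0.52 (SE 0.17, adjusted p = 0.0484) in the order 203625_x_at, 203626_s_at and 210567_s_at. Without the filter, which 203626_s_at and 210567_s_at had passed only through 6 h or ITGB4 arrays, the adjusted p values of these were 0.0489 and 0.0236 for the rise and 0.0499 and 0.0621 for the fall, so that the fall of 210567_s_at was not called. Against untreated cells, neither 6 h (0.44, 0.21 and 0.33 in the same order) nor 24 h (-0.64, -0.58 and -0.19) nor ITGB4 (0.22, 0.21 and 0.41) was called, with lowest adjusted p values of 0.166, 0.346 and 0.749. The rise and fall on 203625_x_at remained called whichever single array was left out, but the drop at 1 h was lost without either untreated, either 1 h or either 6 h array. On the other probe sets the calls between time points were lost without most single arrays of the compared groups, and those from 6 h to 24 h also without either untreated array.

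CCNG1, a p53 target, was lowest at 6 h. Its arrays measured 11.59 and 11.53 in untreated cells, 11.44 and 11.34 at 1 h, 11.09 and 11.04 at 6 h, 11.70 and 11.42 at 24 h, and 11.42 and 11.45 in ITGB4 cells. Both 6 h arrays lay below all 8 others, and the 2 arrays of the 6 h pair were close to each other. CCNG1 dropped by 0.50 at 6 h against untreated cells (SE 0.12, adjusted p = 0.0412), to 0.708 of their level, and rose by 0.50 from 6 h to 24 h (SE 0.12, adjusted p = 0.0193). The difference at 1 h was -0.17 (SE 0.12, adjusted p = 0.399) and that of ITGB4 cells -0.13 (SE 0.12). The call at 6 h was lost without any 1 of the 4 arrays compared, and also without the filter on low values, within a range of 0.0125 to 0.262, and the later rise was lost without either 6 h array or HGF 24 h replicate 1.

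CCNG2, a FOXO target of quiescent cells, fell within 1 h, was lowest at 6 h and had returned to the untreated level at 24 h. On 211559_s_at the untreated arrays measured 8.42 and 8.58, those at 1 h 7.78 and 7.93, those at 6 h 7.54 and 7.47, those at 24 h 8.40 and 8.72, and the ITGB4 arrays 8.65 and 8.77. On 202770_s_at the corresponding pairs were 8.34 and 8.80, 7.82 and 7.71, 7.54 and 7.81, 8.27 and 8.77, and 8.76 and 8.85. On 202769_at they were 8.07 and 8.44, 7.55 and 7.75, 7.27 and 7.55, 8.04 and 8.43, and 8.26 and 8.11. On all 3 probe sets the 4 arrays at 1 h and 6 h lay below the 6 arrays of the other groups, and the 24 h pair overlapped the untreated pair.

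At 1 h CCNG2 dropped by 0.65 on 211559_s_at (SE 0.14, adjusted p = 0.0290) and by 0.80 on 202770_s_at (SE 0.19, adjusted p = 0.0383), while 202769_at, with -0.60 (SE 0.17), had an adjusted p of 0.0684. At 6 h all 3 were lower than in untreated cells, by 1.00 (SE 0.14, adjusted p = 0.00492), 0.89 (SE 0.19, adjusted p = 0.0247) and 0.84 (SE 0.17, adjusted p = 0.0216), which left between 0.50 and 0.557 of the untreated level. The further differences between 1 h and 6 h of -0.35, -0.09 and -0.24 were not called (adjusted p = 0.0968, 0.774 and 0.346). All 3 rose from 6 h to 24 h, by 1.06 (SE 0.14, adjusted p = 0.00148), 0.85 (SE 0.19, adjusted p = 0.0127) and 0.83 (SE 0.17, adjusted p = 0.00962). The differences from untreated cells at 24 h were 0.05, -0.04 and -0.02, and those of ITGB4 cells 0.21, 0.24 and -0.07, all with SE between 0.14 and 0.19 and none called. On 211559_s_at the rise from 6 h to 24 h was called in all 20 alternatives (adjusted p 0.000579 to 0.0335), and the drop at 6 h in 18 of 21, the exceptions being those without untreated replicate 2, without HGF 6 h replicate 2 and without moderation of the variance. The drops at 1 h were lost without either untreated array, HGF 1 h replicate 1 or either 6 h array, and on 202770_s_at also without HGF 1 h replicate 2, those at 6 h on the other probe sets without any 1 of the compared arrays, and their later rises without HGF 6 h replicate 1 or HGF 24 h replicate 2.

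**Figure D2:**
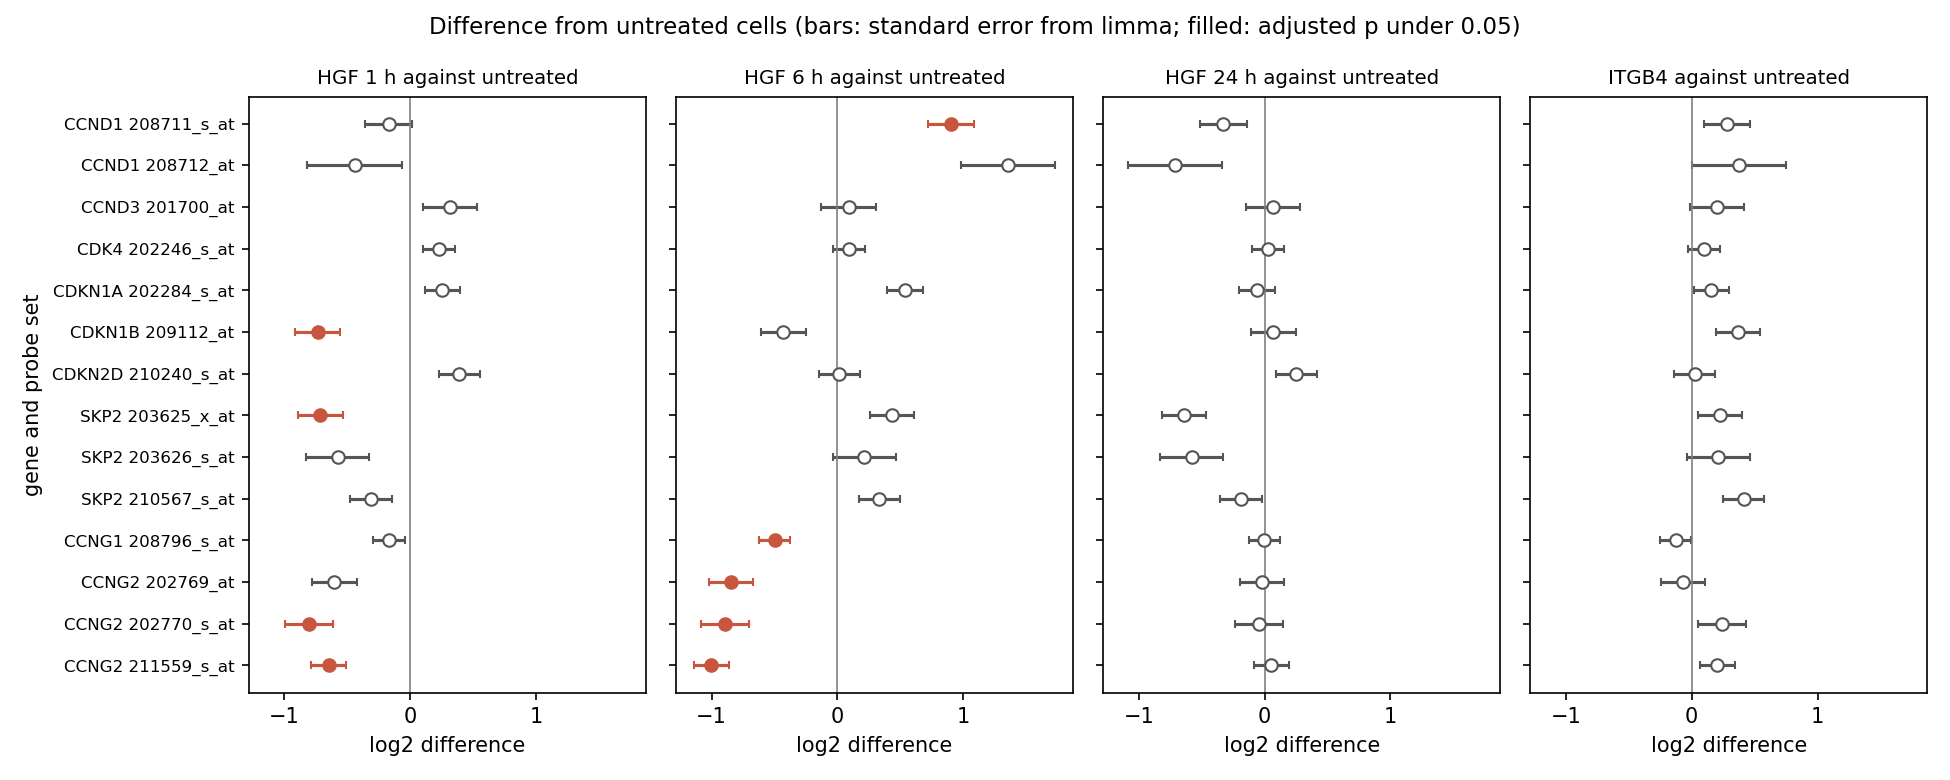
Log2 difference from untreated cells (x axis) of the 14 kept member probe sets (y axis) for HGF 1, 6 and 24 h and ITGB4 cells, with bars of 1 SE from limma. Filled points were called at an adjusted p below 0.05 and open points were not. At 1 h the 4 called probe sets are of CDKN1B, SKP2 and CCNG2, at 6 h the 5 called are of CCND1, CCNG1 and CCNG2, and at 24 h and in ITGB4 cells no point is filled. Of all probe sets 5.67% were called at 1 h, 6.21% at 6 h, 0 at 24 h and 0.0491% in ITGB4 cells.

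Counted over the 14 kept probe sets, 4 were lower and 0 higher than in untreated cells at 1 h, against 5.09% lower and 0.58% higher (5.67% in either direction) among all 10176. At 6 h 1 was higher and 4 were lower, against 3.88% and 2.33% of all, and the 4 lower ones were the 3 probe sets of CCNG2 and the 1 of CCNG1. The higher one was 208711_s_at of CCND1, which had passed the filter only through 6 h or ITGB4 arrays. With the arrays centred on their medians 3 members were higher and 4 lower at 6 h, and 7.73% of all probe sets were called in either direction, while cyclic loess gave 2 higher, 4 lower and 7.28% of all. At 24 h 0 were called by limma, as were 0 of all probe sets, and 2 of the 14 members, both of SKP2, had an unadjusted p below 0.05, near the 11.1% of all probe sets. In ITGB4 cells 0 members were called, against 0.0491% of all, and 1 of 14, the SKP2 probe set 210567_s_at, had an unadjusted p below 0.05, near the 6.07% of all. That probe set, too, had passed the filter only through 6 h or ITGB4 arrays. The median difference of the kept members was -0.38 at 1 h, 0.09 at 6 h, -0.03 at 24 h and 0.21 in ITGB4 cells, beside medians of 0.06, 0.01, 0.00 and -0.00 over all kept probe sets. SKP2, CCNG2 and CCND1 enter the member median with more than 1 probe set each, so it is not a median over genes. At 1 h CCND3, CDK4, CDKN1A and CDKN2D differed by 0.32, 0.23, 0.25 and 0.39, and all kept probe sets of the other genes were below untreated cells. The 4 comparisons with untreated cells share the untreated arrays, so that a deviation of that pair enters each of them.

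Between time points the counts were larger. In the first interval, from 1 h to 6 h, 4 member probe sets rose and 0 fell, against 11.9% and 6.4% of all (18.3% together), and these were both probe sets of CCND1 and 2 of SKP2. In the second, from 6 h to 24 h, 4 rose and 6 fell, against 6.95% and 12.5% of all (19.5% together), with the 4 rises in CCNG1 and CCNG2 and the 6 falls in CCND1, CDKN1A and SKP2. Among all probe sets with a call, the share that rose from 6 h to 24 h was 35.7%, and 46.6% with the arrays centred on their medians. For 1 h to 6 h these shares were 65.0% and 54.8%. Both comparisons use the same 6 h arrays. Of the members counted here, both CCND1 probe sets and 203626_s_at and 210567_s_at of SKP2 had passed the filter only through 6 h or ITGB4 arrays. Being high in these groups was thus a condition of being counted. The shares of all are therefore no like background for their rises and falls. Without the filter 5 member probe sets were called from 1 h to 6 h and 9 from 6 h to 24 h, beside 2097 and 2018 among all 22215.

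**Figure D3:**
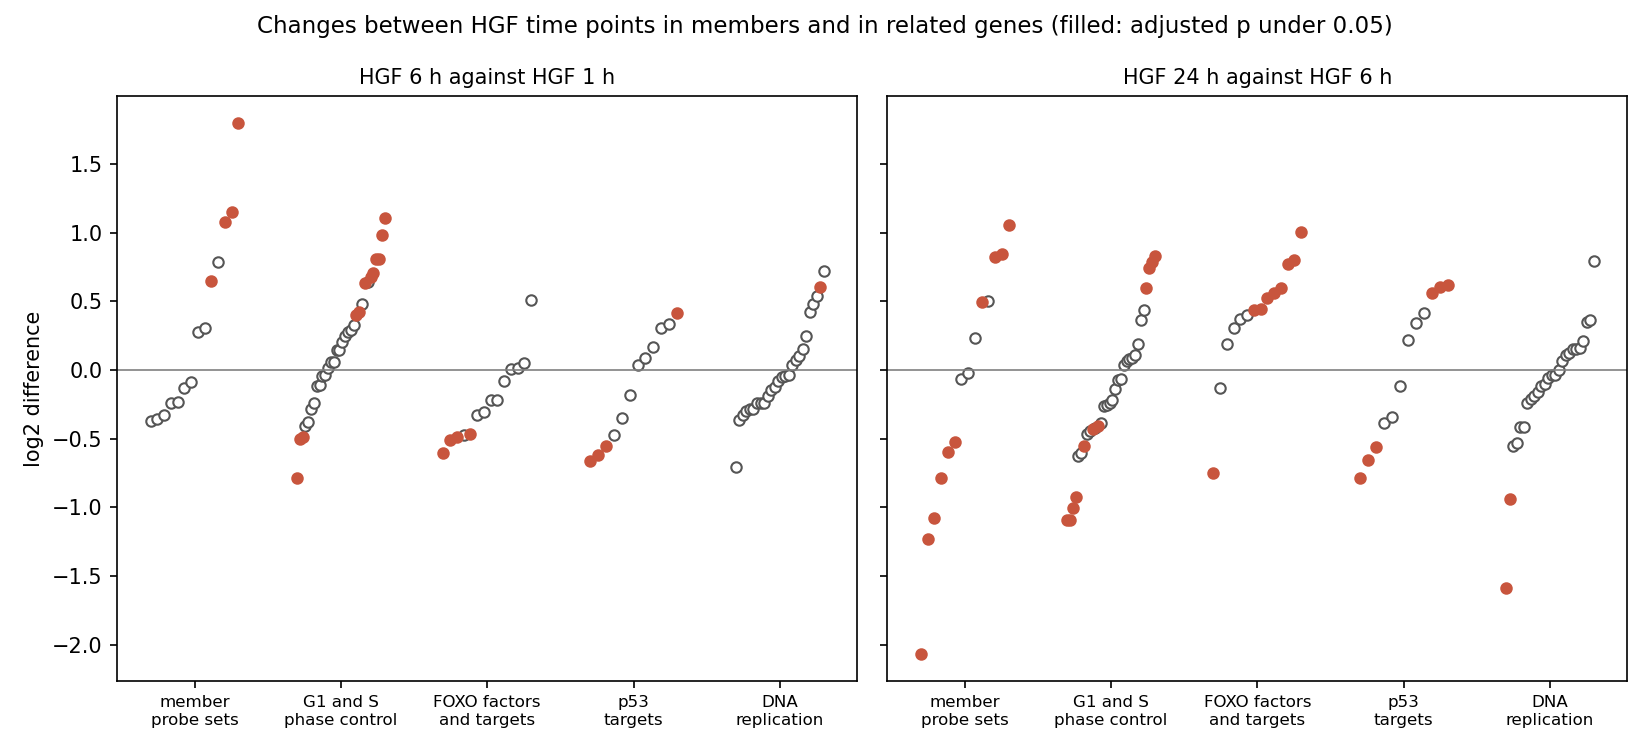
Log2 difference (y axis) of 6 h minus 1 h in the left panel and 24 h minus 6 h in the right, for the kept member probe sets and the genes of the 4 related lists (x axis, each sorted by size). Filled points were called at an adjusted p below 0.05 and open points were not. Of the member probe sets 4 are filled on the left, all above 0, and 10 on the right, 4 above and 6 below 0, while 8 genes of the FOXO list are filled above 0 on the right.

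Other genes of the pathway were read from 4 lists that hold none of the members. Like the members, the lists were chosen with earlier results of these data known. A gene is called when at least 1 of its tested probe sets was. The size given is that of its called probe set with the largest difference, and its other probe sets may not have been called. Of 32 measured G1 and S phase control genes, 0 were higher and 2 lower at 1 h, against 0.814% and 6.45% of all 6390 genes. These were CCNH (-0.66) and MNAT1 (-0.74), the cyclin and the assembly factor of the CDK-activating kinase. At 6 h CUL1, the scaffold on which SKP2 works, rose by 0.68 and E2F4, a repressor E2F, by 0.48, while MXI1, an antagonist of MYC, fell by 0.81 and TFDP2, an E2F partner, by 0.55, and 4.73% of all genes were higher and 2.97% lower. Between 1 h and 6 h 9 rose and 3 fell, against 13.5% and 8.15% of all genes. The largest rises were those of CCNE2, a cyclin E (1.11), CUL1 (0.98) and CCNA2, cyclin A2 (0.81), together with TFDP1, an E2F partner, also at 0.81. The falls were those of FZR1, an activator of the anaphase-promoting complex, by 0.78, MXI1 by 0.50 and TFDP2 by 0.49. Between 6 h and 24 h 4 rose and 7 fell, against 8.15% and 14% of all. FZR1 (0.83), TFDP2 (0.79) and MXI1 (0.74) led the rises, and TFDP1 and CCNE2 (each -1.09) and CDC25A, a phosphatase that activates CDK2 (-1.01), led the falls.

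Of 12 measured p53 targets, AEN, an apoptosis-enhancing nuclease, was higher at 1 h (0.54) and 6 h (0.85) and fell by 0.79 from 6 h to 24 h. TRIAP1, an inhibitor of apoptosis, was also higher at 6 h (0.57), whereas ZMAT3, an RNA-binding protein, was lower at 1 h (-0.51) and 6 h (-0.43). Of the 12 genes, 1 was thus higher and 1 lower at 1 h, against 0.814% and 6.45% of all genes, and 2 were higher and 1 lower at 6 h, against 4.73% and 2.97%. In this list 1 rose and 3 fell from 1 h to 6 h, against 13.5% and 8.15% of all genes, and from 6 h to 24 h 3 rose and 3 fell, against 8.15% and 14%. The 3 that rose last were XPC (0.62) and DDB2 (0.61), damage recognition factors of nucleotide excision repair, and GADD45A (0.56), a growth arrest gene. Called genes of this list went in either direction. Among the members, CDKN1A fell by 0.60 and CCNG1 rose by 0.50 from 6 h to 24 h. A part of p53 in these values was not tested.

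Of 14 measured FOXO factors and targets, KLF2, a quiescence factor, was higher at 1 h (0.46) and IRS2, an adaptor of the insulin receptor, was lower at 6 h (-0.92), against 0.814% of all genes higher at 1 h and 2.97% lower at 6 h. Of the FOXO list 0 rose and 4 fell from 1 h to 6 h, against 13.5% and 8.15% of all genes, with PINK1 (-0.61), FOXO4 (-0.51) and KLF2 (-0.49) in the lead. From 6 h to 24 h 8 rose and 1 fell, against 8.15% and 14% of all genes, and the median of the list was 0.42, beside -0.00 over all genes. Since the list was chosen with earlier results of these data known, these shares are a description and no independent support. TXNIP, an inhibitor of thioredoxin (1.00), BCL6, a transcriptional repressor (0.80), and IRS2 (0.77) rose most, and TRIB1, a pseudokinase, fell by 0.75. GADD45A stands in both this list and that of p53 targets, and RBL2, a relative of the retinoblastoma protein, in both this list and that of G1 and S phase control. Each of them rose from 6 h to 24 h (RBL2 by 0.60) and is counted in both of its lists.

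Of 26 measured DNA replication genes, 0 were called at 1 h, at 6 h, at 24 h or in ITGB4 cells by limma. RFC3, a subunit of the clamp loader, was the 1 gene that rose from 1 h to 6 h (0.60), against 13.5% of all genes, and RRM2, the small subunit of ribonucleotide reductase, and CDC6, a licensing factor, fell by 1.59 and 0.94 from 6 h to 24 h, when 14% of all genes fell. At 24 h and in ITGB4 cells no gene of the other 3 lists was called either, and among all genes 0 were called at 24 h and 0.0469%, all higher, in ITGB4 cells. In all 4 lists called genes were lost without single arrays of the compared groups. Of the 13 kept melanocyte markers 1 was lower at 1 h and 3 at 6 h, against 6.45% and 2.97% of all genes. From 6 h to 24 h 1 of them rose, against 8.15% of all genes. Of the 3 kept epithelial markers 1 rose from 1 h to 6 h, against 13.5% of all genes. From 6 h to 24 h 2 of these fell, against 14%. Of the 3 kept fibroblast markers 1 fell from 1 h to 6 h, against 8.15%. The part of these markers in the member results was not tested.

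For each member with a call, the probe sets of other genes whose values over the 10 arrays were most alike are given by Pearson correlation, as a description of arrays that share groups and scaling. CCND1 was most like TIMM17A (0.978), KPNA3 (0.976) and DYNLL1 (0.973), and CDKN1A most like SRRT (0.978), UFD1 (0.974) and ATP2A2 (0.973). CDKN1B was most like HNRNPDL (0.978), TNIK (0.971) and SUCLG2 (0.941), and SKP2 most like RAB1A (0.980), RNF138 (0.977) and SRSF1 (0.976). CCNG1 was most like SATB1 (0.969), NBR1 (0.954) and CLASP1 (0.950), and CCNG2 most like KMT2A (0.979), UBXN7 (0.960) and SGSM3 (0.948).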

How the data were processed

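RNA was extracted with Trizol and hybridised to Affymetrix hgu133a arrays, 2 per group. The deposited table holds log2 values that the authors made with RMA after quality control with the affy package. RMA's quantile step equalises the array distributions, so shifts shared by most genes are not seen. The study's presence calls were not used here, and a floor of 7.3 on the log2 scale, reached on at least 2 of 10 arrays, took their place. Array number limits the precision. P-values measure the spread between these arrays, and an exact test of 2 against 2 arrays cannot go below 0.333.

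Group means of all 10 arrays were fitted with limma 3.58.1 in R 4.3.3 (5 residual degrees of freedom, moderated), without a replicate block, and 6 comparisons were adjusted by Benjamini-Hochberg over 10176 probe sets each. Of 22215 probe sets other than controls, 19065 had 1 symbol, 1043 several and 2107 none in the platform annotation. No 2 arrays were duplicates. On simulated data for HGF 6 h against untreated with 10176 probe sets, 36%, 68%, 92% and 100% of changes of 0.5, 1, 1.5 and 2 were recovered, with 4 false calls of 152. The simulated noise was independent between probe sets and arrays, and few probe sets were changed. These arrays share deviations and held more calls, so the simulated share of false calls does not carry over to them. The members and lists were chosen with earlier results of these data known. Named were all 10 members by every probe set, of each list at most 3 called genes each way per comparison in order of size, the 3 most correlated probe sets of each called member, and ITGB4. Alternatives were other filters, scalings, priors, spreads and adjustments, gene means, a replicate block and each array left out. Promoter windows came from RefSeq.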

Additional observations from a re-analysis of the deposited data

Results flagged for a closer look

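The following member differences are listed because the HGF groups of 2 time points differed by a direct test between them. This does not separate the effect of HGF from that of time in culture. From 1 h to 6 h these were CCND1 with 1.08 and 1.80 on its 2 probe sets and SKP2 with 1.15 on 203625_x_at and 0.65 on 210567_s_at. From 6 h to 24 h these were CCND1 with -1.23 and -2.07, CDKN1A with -0.60, and SKP2 with -1.08, -0.79 and -0.52, which were lower at 24 h. CCNG1 with 0.50 and CCNG2 with 0.83, 0.85 and 1.06 were higher at 24 h. The CCND1 probe sets and the SKP2 probe sets 203626_s_at and 210567_s_at passed the filter on low values only through 6 h or ITGB4 arrays, and without the filter their adjusted p values were 0.00106 to 0.0499 apart from the fall of 210567_s_at, at 0.0621. Groups of 2 arrays are too small for a test of single outlying arrays.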

How the results depend on the processing

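Every called member difference kept its direction under every alternative run, but only a rescaling of the arrays could have changed a direction. The compared pairs did not overlap, so leaving out 1 array could not, and the other alternatives leave the difference as it was. Only the CCNG2 rise from 6 h to 24 h on 211559_s_at kept its call in all alternatives. The counts of called member probe sets are 4, 5, 4 and 10 for HGF 1 h and 6 h against untreated, 6 h against 1 h and 24 h against 6 h, and 0 at 24 h and in ITGB4 cells under every alternative. Leaving out 1 array gave 0 to 4, 0 to 7, 1 to 5 and 4 to 10, while the share called among all probe sets ran from 0 to 9.65%, 0.187 to 8.52%, 1.98 to 21.4% and 4.68 to 22.2%. At 1 h the member calls were lost without either untreated array, HGF 1 h replicate 1 or either HGF 6 h array. Calls over all probe sets became fewer in each of these cases. Without HGF 1 h replicate 2 the member calls at 1 h became fewer, while those over all probe sets did not. At 6 h both became fewer without either untreated or either 6 h array. From 1 h to 6 h both became fewer without HGF 1 h replicate 1 or either 6 h array. From 6 h to 24 h both did so without any 1 of the arrays compared. Without moderation of the variance (the denominator of Dunnett's test) 0, 0, 0 and 1 were called, the last being CCNG2, against 0, 0.531, 1.82 and 4.3% of all. Adjustment over the 4 comparisons with untreated cells together left 1 at 1 h (2.58% of all), and a spread taken from the 2 compared groups alone gave 9 at 6 h (18.3% of all). A stricter floor of 8 left 2 from 1 h to 6 h, where 1548 of all probe sets were called. Fewer probe sets, members among them, were tested at that floor, so that no share of the 10176 is given. With the probe sets of a gene averaged, 2 member genes were called at 1 h and 4 at 6 h, against 448 and 520 of all 6390 genes. From 1 h to 6 h 2 were called and from 6 h to 24 h 5, against 1326 and 1367 of the 6390. The cause of the other changes was not tested. Deviations of same-numbered arrays correlated between groups at -0.14 to 0.46, above 0.1 in 8 of 10 pairs of groups, so same-numbered arrays may share a deviation. The labels do not give what the numbers mark, and the main fit held no replicate block. With the replicate block the counts were 5, 7, 0, 0, 6 and 11 for the 4 comparisons with untreated cells and the 2 between times, against 7.82, 8.86, 0, 0.0688, 22.1 and 22.6% of all. Without the block these shares of all were 5.67, 6.21, 0, 0.0491, 18.3 and 19.5%, lower in every comparison that had calls. With the filter replaced by none, the CCND1 calls from 1 h to 6 h and from 6 h to 24 h remained.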
